A study of Mus musculus with 15 samples.

Results

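The 10 genes described here make or control the MHC class II presentation apparatus, and they were followed in RNA of mouse skin after bone marrow transplantation. They are the class II chains H2-Aa, H2-Ab1 and H2-Eb1, the invariant chain Cd74, the peptide exchange genes H2-DMa, H2-DMb1 and H2-DMb2, the H2-O genes H2-Oa and H2-Ob, and the transactivator Ciita. They were chosen by symbol for this shared role, from 56059 genes in the deposited table, and 10 of 10 passed the filter on low counts that left 18651 genes for testing.

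Allogeneic recipients model chronic graft-versus-host disease of the sclerodermatous kind, in which the skin is attacked by immune cells of the donor. The first group, called the combination here, was 4 libraries from allogeneic recipients given 5 mg/kg of Wnt-C59 and 150 mg/kg of belumosudil, and the second was 4 libraries from allogeneic recipients given 5 mg/kg of Wnt-C59 alone. The third was 3 libraries from allogeneic recipients of the vehicle, 0.4% methylcellulose, and the last was 4 libraries from syngeneic transplanted controls given that vehicle. Gavage was daily in every group, between days 21 and 49 after transplantation. The target of Wnt-C59 is porcupine, which lipidates Wnt proteins before their secretion, and belumosudil inhibits the kinase ROCK2. Strain, sex, age and conditioning were not given in the sources used here, so it cannot be told from them whether the groups carry the same class II alleles, and the authors' alignment used 1 reference genome. Whole skin holds many cell types, and more cells of a type cannot be told apart from more RNA per cell.

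Class II molecules are pairs of an alpha and a beta chain that display peptides to CD4 T cells. The invariant chain, encoded by Cd74, blocks the peptide groove until cathepsins digest it in the endosome, H2-DM then exchanges its last fragment for a peptide, and H2-O restrains H2-DM. Dendritic cells, Langerhans cells, macrophages and B cells express class II genes, and interferon-gamma induces them in other cells through IRF1 and CIITA. CIITA does not bind DNA itself but is recruited by the RFX, CREB and NF-Y complexes that sit on the X and Y boxes of class II promoters.

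The promoters are shown because those boxes are the address that CIITA reads, and because they allow the sequence of members that moved together to be set beside the H2-O genes. RefSeq windows of build GRCm38.p6 were at hand for 7 of the 10 members, 8 windows in all since H2-DMa has 2, and for none of H2-Ab1, Cd74 and Ciita. Each window runs from 250 bases before the annotated start to 50 after it, and the printed stretch of 170 bases starts 160 bases before. Capitals mark a short X box core AACNGAT and the Y box TGATTGG, an inverted CCAAT, both searched on both strands and not overlapping each other; the X box letters were chosen after the windows had been read.
H2-Eb1: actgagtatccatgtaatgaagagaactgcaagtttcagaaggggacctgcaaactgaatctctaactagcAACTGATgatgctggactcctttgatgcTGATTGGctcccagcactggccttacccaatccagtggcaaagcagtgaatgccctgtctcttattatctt
H2-DMb1: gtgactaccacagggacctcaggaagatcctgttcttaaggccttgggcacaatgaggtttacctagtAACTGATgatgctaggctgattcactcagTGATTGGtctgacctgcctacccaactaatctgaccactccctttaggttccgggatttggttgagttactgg
H2-DMb2: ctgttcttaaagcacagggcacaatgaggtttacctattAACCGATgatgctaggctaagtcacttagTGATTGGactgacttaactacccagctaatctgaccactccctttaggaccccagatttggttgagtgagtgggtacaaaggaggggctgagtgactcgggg
H2-Aa: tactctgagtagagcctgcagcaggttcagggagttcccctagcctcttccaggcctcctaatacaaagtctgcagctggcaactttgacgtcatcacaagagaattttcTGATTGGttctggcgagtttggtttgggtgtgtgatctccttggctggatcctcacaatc
H2-Oa: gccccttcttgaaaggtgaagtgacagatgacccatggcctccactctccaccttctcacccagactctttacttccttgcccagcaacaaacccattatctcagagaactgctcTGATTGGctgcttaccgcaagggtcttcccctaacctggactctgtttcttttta
H2-Ob: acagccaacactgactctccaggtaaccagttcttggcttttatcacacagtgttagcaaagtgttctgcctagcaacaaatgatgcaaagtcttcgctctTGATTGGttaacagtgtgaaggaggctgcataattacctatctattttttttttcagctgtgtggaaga

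All of these windows lie on chromosome 17, in the class II region. The printed stretch of H2-Eb1 is chr17:34305707-34305876 on the plus strand, that of H2-DMb1 is chr17:34153031-34153200 and that of H2-DMb2 is chr17:34145089-34145258, both also on the plus strand. H2-Aa is read on the minus strand from chr17:34287814-34287983. H2-Oa lies on the plus strand at chr17:34092219-34092388 and H2-Ob on the plus strand at chr17:34238745-34238914. The Y box begins 61 bases before the start in H2-Eb1, 63 in H2-DMb1, 92 in H2-DMb2, 50 in H2-Aa, 45 in H2-Oa and 59 in H2-Ob, and neither H2-DMa window holds these letters. The X box letters were found in H2-Eb1, 89 bases before the start, in H2-DMb1, 92 bases before it, and in H2-DMb2, 121 bases before it, upstream of the Y box in each. Of 32851 RefSeq mouse windows of the same length, 7.82% hold the Y box letters, 6.94% the X box letters and 0.545% both. Since the X box letters were chosen from the member windows, the shares with these letters cannot say how unusual the member matches are. A match is a description of letters, and the H2-O genes hold a Y box as the H2-Aa window does. No X box letters were found in H2-Aa, H2-Oa, H2-Ob or H2-DMa. Only this short core was searched, so an X box with other letters may still be present there.

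Library depth was 18.99 to 28.78 M estimated counts in the treated groups and 16.26 to 20.39 M in the vehicle groups. Columns of the treated libraries in the table carry numbers of their own (2, 3, 4 and 5 for the combination, and 1, 2, 4 and 5 for Wnt-C59), used here as library numbers. The combination columns carry a code that no label spells out and were matched because no other group remained, while the title of the series also names ruxolitinib and ibrutinib combinations. The treated libraries stand apart from the vehicle libraries in a technical measure: 44.76 to 60.62% of their nonzero gene values are not whole numbers, against 31.07 to 34.39% in vehicle libraries. Fold changes across genes also follow GC content, with a Spearman rho of 0.541 for the combination against allogeneic vehicle and 0.504 for Wnt-C59 against allogeneic vehicle, against -0.1 for allogeneic against syngeneic vehicle. No label gives a batch, so processing and treatment cannot be told apart, and values with a per-gene GC offset are given below for each member in the treated groups against allogeneic vehicle and for most other genes named there. The labels do not say that libraries of a group came from separate animals, and p-values measure the spread between these libraries.

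Allogeneic skin carried more class II message than syngeneic skin in every class but H2-O, whose genes had few counts and did not pass the test. Of the 10 members 8 rose and none fell in allogeneic vehicle against syngeneic vehicle skin, by edgeR's quasi-likelihood test with Benjamini-Hochberg adjustment at 0.05. Of all tested genes 29.8% were called, made up of 14.6% that were higher and 15.1% that were lower. The median log2 fold change of the members was 1.73, against -0.07 over all tested genes. In the same 8 members every allogeneic library lay above every syngeneic library, a separation seen in 16.7% of all tested genes.

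H2-Ab1, the beta chain of the I-A molecule, had 428, 1055 and 730 CPM (counts scaled to the TMM-adjusted size of each library) in allogeneic vehicle libraries 1 to 3. Syngeneic libraries 1 to 4 had 204, 161, 359 and 186 CPM. Library 2 was highest among the allogeneic and library 3 among the syngeneic ones, and the groups did not overlap. H2-Ab1 rose by a log2 fold change of 1.70 (SE 0.37, adjusted p = 0.0035 by edgeR's quasi-likelihood test), which is 3.24-fold.

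Its partner H2-Aa, the I-A alpha chain, had 480, 1204 and 728 CPM in allogeneic libraries and 216, 172, 365 and 205 CPM in syngeneic ones. H2-Eb1, the beta chain of I-E, had 382, 1159 and 668 CPM in allogeneic libraries, against 183, 173, 360 and 184 CPM in syngeneic ones. The same libraries were highest as for H2-Ab1, and the lowest allogeneic H2-Eb1 value was close to the highest syngeneic one. H2-Aa rose by 1.75 (SE 0.36, edgeR adjusted p = 0.0021) and H2-Eb1 by 1.71 (SE 0.40, edgeR adjusted p = 0.0055) on the log2 scale.

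Cd74, the invariant chain, had 1190, 3020 and 1971 CPM in allogeneic libraries and 441, 372, 1013 and 446 CPM in syngeneic ones. Its log2 fold change was 1.86 (SE 0.40, edgeR adjusted p = 0.003). Per kilobase of exon, Cd74 had the highest mean level of the members, 1227 ± 547 CPM per kb in allogeneic skin (SD, n = 3) and 338 ± 178 CPM per kb in syngeneic skin (SD, n = 4). H2-Eb1 followed with 379 ± 202 and 116 ± 46.5 CPM per kb in the same groups, and H2-Ab1 with 287 ± 122 and 88.6 ± 34.8 CPM per kb.

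The H2-DM genes, whose product loads peptides, rose as well. H2-DMa, the alpha chain, had 46.7, 99.9 and 64.9 CPM in allogeneic libraries and 22.1, 14.3, 32.8 and 16.3 CPM in syngeneic ones, a log2 fold change of 1.72 (SE 0.35, edgeR adjusted p = 0.0021). H2-DMb1, a beta chain, had 45.3, 125 and 79.0 CPM in allogeneic libraries and 22.2, 17.8, 28.6 and 20.7 CPM in syngeneic ones. Its log2 fold change of 1.90 had the smallest error of the members (SE 0.32, edgeR adjusted p = 0.00057).

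H2-DMb2, the neighbouring beta chain gene, had 21.2, 59.5 and 34.1 CPM in allogeneic libraries and 10.8, 8.53, 13.8 and 12.0 CPM in syngeneic ones. It rose by a log2 fold change of 1.76 (SE 0.38, edgeR adjusted p = 0.0032). These 2 beta chain genes are close copies, as the promoter lines show, and their counts are uncertain. The H2-DMb1 count is not whole in 15 libraries and the H2-DMb2 count in 14, while their sum is not whole in 7 (tolerance 0.01 counts).

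H2-O did not pass the test. H2-Oa, its alpha chain, had 0.911, 0.359 and 0.620 CPM in allogeneic libraries and 0.275, 0.278, 0.732 and 0.220 CPM in syngeneic ones, which overlap. Those are 15, 6 and 11 counts against 6, 6, 16 and 5. The log2 fold change was 0.73 with a 95% confidence interval of -0.52 to 1.99 (edgeR adjusted p = 0.37).

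H2-Ob, the H2-O beta chain, had 0.304, 3.71 and 1.24 CPM in allogeneic libraries, the lowest and the highest of the 7 vehicle libraries among them. Syngeneic libraries had 2.06, 1.34, 1.69 and 0.970 CPM. The log2 fold change was 0.21 with an interval of -1.15 to 1.56 (edgeR adjusted p = 0.84), and without allogeneic library 2 it was -0.93. At 5 to 62 counts per allogeneic library, changes of this size were not detectable.

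Ciita, the transactivator, had the largest log2 fold change of the members. Allogeneic libraries had 29.5, 86.6 and 55.4 CPM and syngeneic ones 16.1, 11.1, 10.3 and 11.8 CPM. It rose by 2.22 (SE 0.40, edgeR adjusted p = 0.0011), or 4.64-fold. Per kilobase Ciita was low, 5.99 ± 3.00 CPM per kb in allogeneic skin (SD, n = 3) and 1.29 ± 0.271 CPM per kb in syngeneic skin (SD, n = 4). The 8 calls of this comparison held when any single library was left out and with the GC offset.

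**Figure D1:**
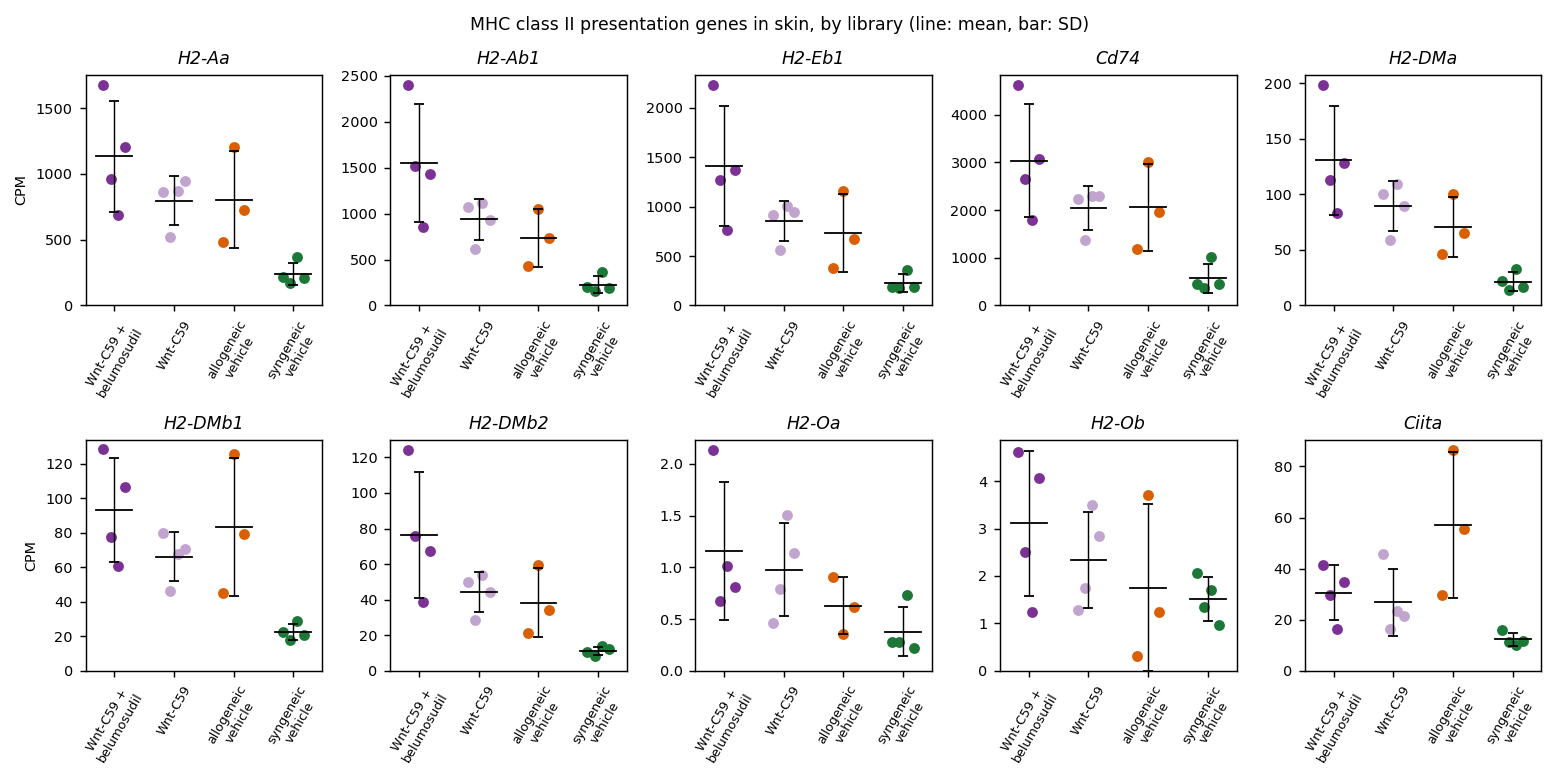
CPM (vertical axes, linear from 0, a scale per panel) of each of the 10 genes in every library of the combination, Wnt-C59, allogeneic vehicle and syngeneic vehicle groups; points are libraries, lines means and bars SD. For the class II chains, Cd74 and the H2-DM genes the 4 syngeneic libraries lie at the bottom and combination library 2 at the top, while for Ciita allogeneic library 2 is at the top with 86.6 CPM.

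Every treated library held more message of the class II chains than every syngeneic one. In the combination libraries H2-Ab1 had 2401, 1520, 851 and 1431 CPM, against 428 to 1055 CPM in allogeneic vehicle skin. Combination library 2 was the highest, and library 4 lay within the allogeneic range. Of the 10 members 3 rose and none fell in the combination against allogeneic vehicle, where 54.5% of all tested genes were called, made up of 27.1% that were higher and 27.4% that were lower. The median log2 fold change of the members was 0.85, against 0.01 over all tested genes.

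The 3 called members were H2-Ab1 at a log2 fold change of 1.07 (SE 0.38, edgeR adjusted p = 0.028), H2-DMb2 at 1.00 (SE 0.38, edgeR adjusted p = 0.039) and H2-DMa at 0.89 (SE 0.35, edgeR adjusted p = 0.045). H2-DMa had 198, 113, 83.4 and 128 CPM in combination libraries, against 46.7 to 99.9 CPM in allogeneic ones. H2-DMb2 had 124, 75.7, 38.8 and 67.4 CPM, against 21.2 to 59.5 CPM in allogeneic ones. The groups overlapped in each of these genes, through combination library 4 and allogeneic library 2.

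Each of the 3 calls was lost under some alternative. With the GC offset the log2 fold changes were 0.33 for H2-Ab1 (edgeR adjusted p = 0.45), 0.65 for H2-DMb2 (edgeR adjusted p = 0.16) and 0.32 for H2-DMa (edgeR adjusted p = 0.42); GC content is 57.3% for H2-Ab1, 52.9% for H2-DMb2 and 55.1% for H2-DMa, against a median of 49.7% over tested genes. The 3 calls were also lost without allogeneic library 1 (log2 fold changes 0.80, 0.71 and 0.67 in the same order), without allogeneic library 3 (1.07, 0.93 and 0.84) and without combination library 2 (0.78, 0.66 and 0.61). Without combination library 3 the calls of H2-DMb2 (1.00) and H2-DMa (0.95) were lost, and without combination library 5 that of H2-DMa (0.91). All 3 ended with a score of the adipocyte markers as a covariate (0.57, 0.56 and 0.45 for H2-Ab1, H2-DMb2 and H2-DMa) and in a fit of the 2 groups alone (1.07, 1.00 and 0.89), and without the filter on low counts H2-DMb2 (1.07) and H2-DMa (0.95) were not called.

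The other chains and Cd74 did not pass the test in the combination. H2-Eb1 had 2233, 1269, 764 and 1372 CPM in combination libraries, against 382 to 1159 CPM in allogeneic ones, a log2 fold change of 0.94 (95% confidence interval 0.06 to 1.81, edgeR adjusted p = 0.067). H2-Aa had 1679, 961, 688 and 1205 CPM, against 480 to 1204 CPM, a log2 fold change of 0.50 (interval -0.27 to 1.26). Cd74 had 4628, 2650, 1798 and 3063 CPM, against 1190 to 3020 CPM, a log2 fold change of 0.56 (interval -0.30 to 1.42). Library 2 is again the highest combination library in each. Under the GC offset the log2 fold changes were 0.70 for H2-Eb1, 0.85 for H2-Aa and -0.13 for Cd74, none of them called.

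H2-DMb1 had 128, 77.4, 61.0 and 106 CPM in combination libraries, against 45.3 to 125 CPM in allogeneic ones, a log2 fold change of 0.16 (interval -0.51 to 0.84). H2-Oa had 2.13, 0.673, 1.02 and 0.814 CPM and H2-Ob 4.62, 2.50, 1.24 and 4.07 CPM. Their log2 fold changes of 0.88 (interval -0.34 to 2.11) and 0.83 (interval -0.53 to 2.19) did not pass. Both sets overlap the allogeneic libraries. Under the GC offset H2-DMb1 came to -0.28, H2-Oa to 0.19 and H2-Ob to 1.23, none of them called.

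With Wnt-C59 alone the chains lay within or near the allogeneic range, and Ciita was the 1 member called. Of the 10 members none rose and 1 fell against allogeneic vehicle, where 50.8% of all tested genes were called, made up of 24.6% that were higher and 26.2% that were lower. The members' median log2 fold change was 0.21, against 0 over all tested genes. H2-Ab1 had 1070, 620, 1120 and 936 CPM in Wnt-C59 libraries, a log2 fold change of 0.34 (interval -0.46 to 1.14, edgeR adjusted p = 0.47).

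H2-Aa had 862, 519, 867 and 943 CPM and H2-Eb1 917, 557, 1011 and 943 CPM in Wnt-C59 libraries. Cd74 had 2242, 1364, 2302 and 2300 CPM. Library 2 was the lowest of the group in all of these. The log2 fold changes against allogeneic vehicle were -0.01 for H2-Aa (interval -0.77 to 0.75), 0.22 for H2-Eb1 (interval -0.64 to 1.08) and -0.01 for Cd74 (interval -0.86 to 0.84), and changes within these intervals could not be told from none.

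H2-DMa had 100, 58.6, 110 and 89.8 CPM, H2-DMb1 80.1, 46.1, 67.6 and 70.7 CPM, and H2-DMb2 50.1, 28.4, 54.1 and 44.3 CPM in Wnt-C59 libraries. Their log2 fold changes were 0.34, -0.33 and 0.21, with edgeR adjusted p of 0.44, 0.40 and 0.68. H2-Oa had 0.461, 0.793, 1.51 and 1.14 CPM (log2 fold change 0.63, interval -0.60 to 1.86). H2-Ob had 1.28, 1.74, 3.49 and 2.85 CPM (log2 fold change 0.42, interval -0.94 to 1.77). Under the GC offset the Wnt-C59 values were -0.32 for H2-Ab1, 0.29 for H2-Aa, 0.00 for H2-Eb1 and -0.61 for Cd74. They were -0.16 for H2-DMa, -0.73 for H2-DMb1, -0.11 for H2-DMb2, 0.00 for H2-Oa and 0.76 for H2-Ob, and none of these 9 was called.

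Ciita had a lower mean in both treated groups. It had 41.5, 29.5, 16.3 and 34.8 CPM in combination libraries and 45.8, 16.5, 23.3 and 21.4 CPM in Wnt-C59 libraries, against 29.5, 86.6 and 55.4 CPM in allogeneic vehicle ones. Both treated groups overlap the allogeneic libraries through allogeneic library 1. Ciita fell with Wnt-C59 by 1.10 on the log2 scale (SE 0.39, edgeR adjusted p = 0.032), and its log2 fold change in the combination was -0.90 (SE 0.39, edgeR adjusted p = 0.066).

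With the GC offset these values were -1.59 for Wnt-C59 (edgeR adjusted p = 0.0065) and -1.47 for the combination (edgeR adjusted p = 0.0092). Without allogeneic library 2 the Wnt-C59 value was -0.65 and no longer called. The call was also lost without allogeneic library 3 (log2 fold change -1.12) and without Wnt-C59 library 2 (-0.92), 4 (-1.04) or 5 (-1.0). It ended as well without the filter on low counts (-1.06), with the adipocyte covariate (-1.46) and in a fit of the 2 groups alone (-1.11).

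**Figure D2:**
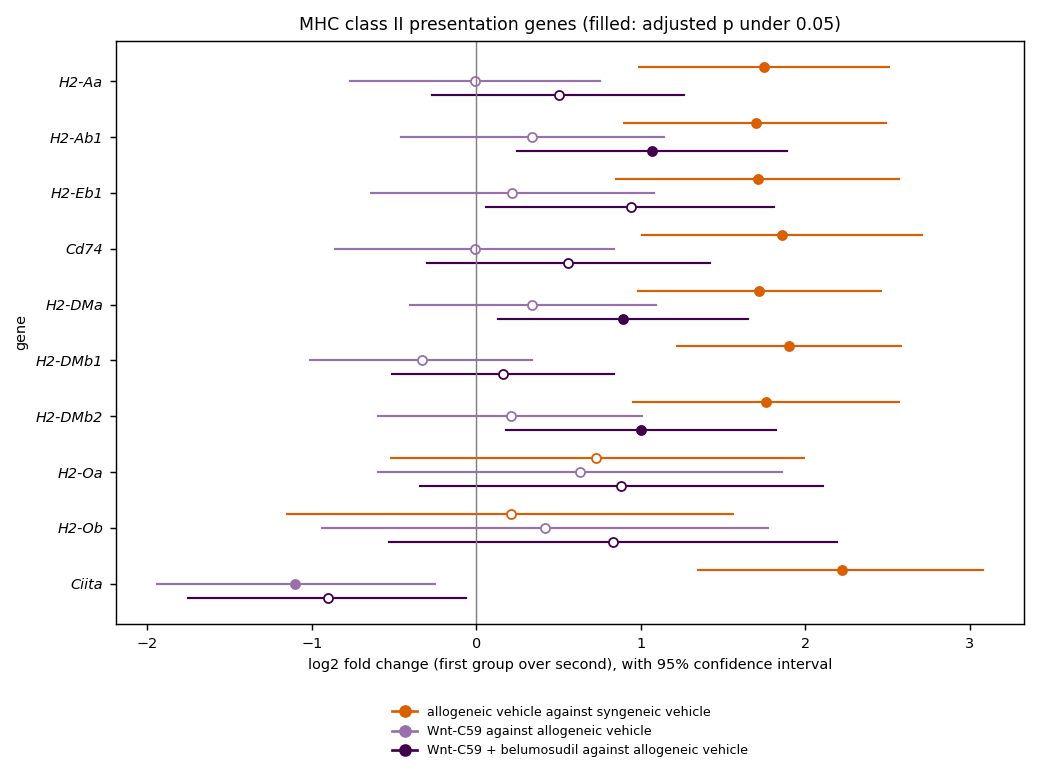
Log2 fold change (horizontal axis) with its 95% confidence interval for each of the 10 genes in 3 comparisons, allogeneic against syngeneic vehicle and each treated group against allogeneic vehicle; filled points have an adjusted p under 0.05. The 8 filled allogeneic points lie between 1.70 and 2.22, and Ciita is the 1 gene with both treated points well below 0.

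Adding belumosudil to Wnt-C59 called none of the 10 members, in a comparison where 0.231% of all tested genes were called. At an unadjusted p under 0.05 there was 1 member, H2-DMb2, with a log2 fold change of 0.79 (SE 0.35, interval 0.05 to 1.54, edgeR adjusted p = 0.21). Limma-voom, which called 65 of 18651 genes here, and DESeq2, which called 1507 of 17496, also called 0 members. The median log2 fold change of the members was 0.53, against -0.01 over all tested genes. H2-Ab1 came to 0.73 (interval -0.01 to 1.47) and Ciita to 0.19 (interval -0.60 to 0.98), and libraries overlapped in all 10 members (5.81% of all tested genes were separate and higher, 7.28% separate and lower).

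Against syngeneic vehicle skin, 9 members were higher in the combination and 9 with Wnt-C59, all but H2-Ob. Of all tested genes 54.1% were called in the combination, with 26.9% of all tested genes higher. With Wnt-C59 53.1% were called, with 26.0% of all tested genes higher. H2-Ab1 had a log2 fold change of 2.77 in the combination (SE 0.37, edgeR adjusted p = 3.5e-05) and 2.04 with Wnt-C59 (SE 0.36, edgeR adjusted p = 0.00035), and with the GC offset 2.16 and 1.52. Ciita had 1.31 in the combination (SE 0.38, edgeR adjusted p = 0.0091) and 1.12 with Wnt-C59 (SE 0.37, edgeR adjusted p = 0.022).

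With the GC offset 7 members were called in each, since H2-Oa and Ciita no longer passed. Of 18651 tested genes 8252 were then called in the combination and 8441 with Wnt-C59, of which 4304 and 4157 were higher. Ciita had 0.78 with that offset in the combination (edgeR adjusted p = 0.10) and 0.66 with Wnt-C59 (edgeR adjusted p = 0.16). Ciita lost its Wnt-C59 call also without Wnt-C59 library 1 (0.73) and without syngeneic library 3 (1.04). H2-Oa lost its Wnt-C59 call also without the filter on low counts (1.32), with the adipocyte covariate (1.32) and with the muscle score (1.17). These comparisons share the syngeneic libraries with the allogeneic one, and those of treated against allogeneic skin share its 3 libraries.

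Ordered by mean CPM, the combination came first and syngeneic skin last in 9 of the 10 members. For Ciita the allogeneic vehicle group came first. Syngeneic libraries were separate from those of the next higher group in 8 members and overlapped it in H2-Oa and H2-Ob. That next group was Wnt-C59 for H2-Aa, Cd74, H2-DMb1 and Ciita, and allogeneic vehicle for the others. Allogeneic vehicle libraries were separate from and above syngeneic ones in 16.7% of all tested genes. The share for Wnt-C59 is not given here, so the 8 is only a description of the order. No other pair of neighbours in the order was separate for any member.

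Ratios between genes inside a library are free of the scaling between libraries. In log2, the count of Ciita over that of H2-Ab1 was -5.85, -5.69, -5.70 and -5.36 in combination libraries and -4.54, -5.23, -5.58 and -5.45 in Wnt-C59 libraries. Allogeneic vehicle libraries had -3.86, -3.61 and -3.72, and syngeneic ones -3.67, -3.86, -5.13 and -3.97. Every treated library lay below every allogeneic one, while syngeneic library 3 lay among the treated ones.

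The mean Ciita ratio differed from allogeneic vehicle by -1.92 in the combination and by -1.47 with Wnt-C59. The exact two-sided permutation test gave p = 0.057 for each, the smallest that 4 against 3 libraries allow, and 0.09 after Benjamini-Hochberg adjustment over the 30 ratio tests. The lowest adjusted value of the 30 was 0.09, so none passed. Ciita and H2-Ab1 have GC contents of 55.2% and 57.3%, but exon lengths of 9535 and 2568 bases.

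H2-Ob over H2-DMb1, the inhibitor's beta chain relative to a beta chain of its target, was -4.79, -4.94, -5.58 and -4.70 in combination libraries and -5.94, -4.71, -4.27 and -4.62 with Wnt-C59. It was -7.08, -5.07 and -5.96 in allogeneic libraries and -3.41, -3.70, -4.06 and -4.38 in syngeneic ones. The allogeneic libraries all lay below the syngeneic ones, with a mean difference of -2.15 (exact permutation p = 0.057, adjusted p = 0.09). H2-Ob has few counts, and its GC content of 46.0% is lower than the 53.8% of H2-DMb1.

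Cd74 over H2-Ab1 averaged 1.14 ± 0.12 with Wnt-C59 and 1.48 ± 0.04 in allogeneic vehicle skin (SD, n = 4 and 3), a difference of -0.34. H2-DMb2 over H2-DMb1 averaged -0.35 ± 0.35 in the combination and -0.59 ± 0.18 with Wnt-C59, against -1.13 ± 0.07 in allogeneic skin. The combination was split, with -0.05 and -0.03 in libraries 2 and 3 and -0.65 and -0.66 in libraries 4 and 5. Over all tested genes the log2 CPM of these pairs correlated at 0.979 and 0.953, against 0.891 to 0.929 between the pairs. Since reads of H2-DMb2 and H2-DMb1 may have been shared out between them, their ratio is uncertain.

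H2-Ab1 over Ptprc, which encodes the leukocyte surface protein CD45, averaged 5.23 ± 0.28 in the combination and 4.87 ± 0.58 with Wnt-C59 (SD, n = 4 each). It averaged 2.47 ± 0.83 in allogeneic vehicle skin (SD, n = 3) and 2.91 ± 0.48 in syngeneic skin (SD, n = 4). All treated libraries, from 4.45 up, lay above all vehicle libraries, of which the highest was 3.61. The differences from allogeneic vehicle of 2.76 and 2.40 had exact permutation p = 0.057 each (adjusted p = 0.09). Ptprc has a GC content of 39.4%, the farthest from H2-Ab1 of the genes in these ratios. With the GC offset the log2 fold changes against allogeneic vehicle were 0.33 for H2-Ab1 and -0.40 for Ptprc in the combination, and -0.32 for H2-Ab1 and -0.96 for Ptprc with Wnt-C59, so that each pair lay much closer together than in the ratio.

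**Figure D3:**
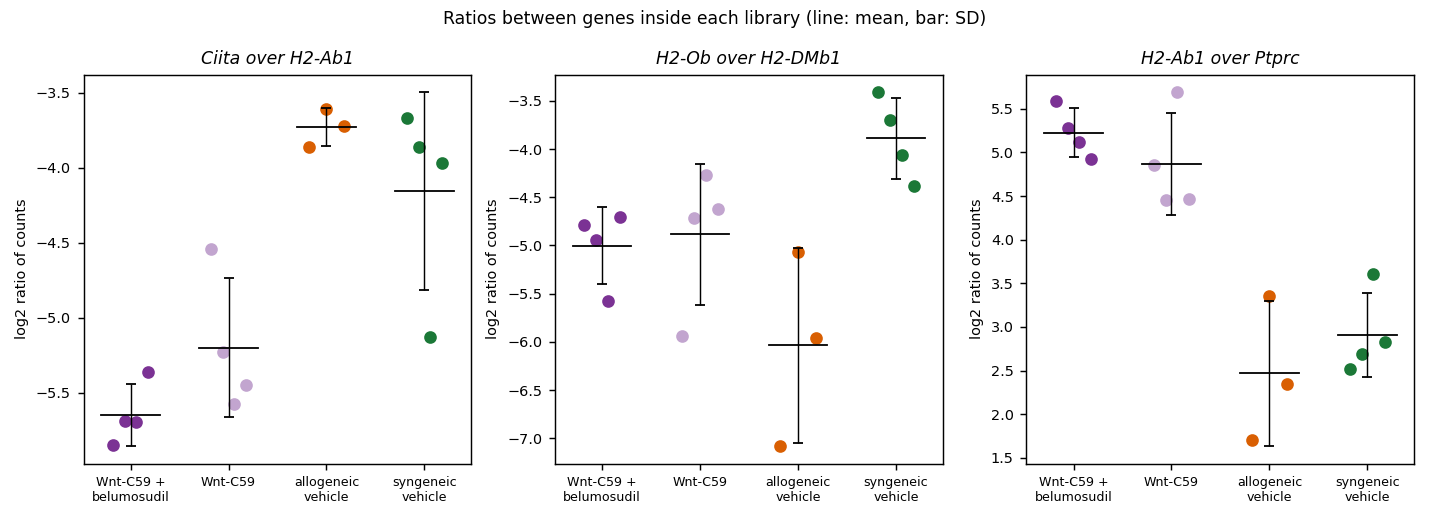
Log2 ratio of counts of 2 genes (vertical axes) in every library of the 4 groups, with means and SD, for Ciita over H2-Ab1, H2-Ob over H2-DMb1, and H2-Ab1 over Ptprc. The treated libraries lie below the allogeneic ones for Ciita over H2-Ab1 and above all vehicle libraries for H2-Ab1 over Ptprc. The ratios carry no GC correction.

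Levels of cell type markers differed between the groups as well. Ptprc had 49.96, 39.1, 24.4 and 47.4 CPM in the combination and 36.9, 28.3, 21.6 and 42.2 CPM with Wnt-C59, against 131, 104 and 143 CPM in allogeneic vehicle libraries. Syngeneic ones had 35.5, 24.9, 29.3 and 26.1 CPM. It rose in allogeneic against syngeneic skin by 2.12 on the log2 scale (SE 0.25, edgeR adjusted p = 4.9e-05), and fell by 1.65 in the combination and by 1.97 with Wnt-C59 against allogeneic vehicle (edgeR adjusted p = 9.6e-05 and 3.5e-05). With the GC offset the combination value was -0.40 and no longer called (edgeR adjusted p = 0.22), and the Wnt-C59 value was -0.96 (edgeR adjusted p = 0.0088).

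Of 6 macrophage markers 5 rose in allogeneic against syngeneic skin, 4 fell in the combination and 6 fell with Wnt-C59 against allogeneic vehicle. Of all tested genes 14.6% were higher in the first comparison, 27.4% lower in the combination and 26.2% lower with Wnt-C59. Their summed level was 309 to 537 CPM in the combination, 255 to 366 CPM with Wnt-C59, 577 to 1569 CPM in allogeneic and 167 to 262 CPM in syngeneic libraries. Of 4 T cell markers 4 rose in allogeneic skin, 3 fell in the combination and 4 fell with Wnt-C59 against allogeneic vehicle. The summed level of these 4 was 16.5 to 30.9 CPM in the combination, 15.4 to 24.1 CPM with Wnt-C59, 33.5 to 60.9 CPM in allogeneic and 2.60 to 3.80 CPM in syngeneic libraries. With the GC offset Cd4 and Cd8a were called lower in the combination, but Cd3e (-0.37, edgeR adjusted p = 0.39) and Cd3d (-0.77, edgeR adjusted p = 0.19) were not. Of the macrophage markers Csf1r, Mrc1 and Cd163 were called lower there, and Cd68, Adgre1 and Fcgr1 were not. With Wnt-C59 every marker of both lists was still called lower under that offset.

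Langerhans cell markers ran otherwise. Cd207, which encodes langerin, had 31.6, 23.5, 23.7 and 26.1 CPM in the combination and 10.3, 20.3, 40.3 and 6.94 CPM with Wnt-C59. Allogeneic vehicle libraries had 0.121, 7.07 and 0.113 CPM and syngeneic ones 14.8, 8.58, 12.1 and 7.50 CPM. Allogeneic library 2, the highest allogeneic library for the chains and Ciita, is the one with Cd207. Cd207 rose in the combination by 3.43 (SE 1.07, edgeR adjusted p = 0.017) and with Wnt-C59 by 3.00 (SE 1.06, edgeR adjusted p = 0.031) on the log2 scale against allogeneic vehicle, and with the GC offset these values were 3.65 and 3.20.

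The 7 dendritic cell markers summed to 44.0 to 102 CPM in the combination, 33.6 to 54.6 CPM with Wnt-C59, 36.0 to 76.6 CPM in allogeneic and 24.9 to 34.9 CPM in syngeneic libraries. Of these, 4 rose in the combination and 2 with Wnt-C59 against allogeneic vehicle, and none fell, where 27.1% and 24.6% of all tested genes were higher. In allogeneic against syngeneic skin 1 rose and 2 fell, where 14.6% of all tested genes were higher and 15.1% lower. Flt3 averaged 4.23 CPM in the combination, 2.89 CPM with Wnt-C59, 0.806 CPM in allogeneic and 2.46 CPM in syngeneic skin. It fell in allogeneic against syngeneic skin, as Cd209a did, while Itgax rose by 2.39 (SE 0.41, edgeR adjusted p = 0.00069). Itgax averaged 32.3 CPM in the combination, 20.1 CPM with Wnt-C59, 36.7 CPM in allogeneic and 6.98 CPM in syngeneic skin. Its GC offset value with Wnt-C59 against allogeneic vehicle was -1.06 (edgeR adjusted p = 0.041). The markers thus did not move as 1 set.

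B cell markers were near 0. The 5 of them summed to 0.673 to 1.67 CPM in the combination, 0.446 to 2.19 CPM with Wnt-C59, 0.659 to 1.07 CPM in allogeneic and 0.278 to 0.705 CPM in syngeneic libraries, and Cd79b was the 1 of 5 that passed the filter on low counts. Ms4a1, which encodes CD20, averaged 0 CPM in the combination and in allogeneic skin.

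Markers of skin structure moved too. The 4 adipocyte markers summed to 774 to 1236 CPM in the combination and 482 to 1291 CPM with Wnt-C59, against 227 to 379 CPM in allogeneic and 436 to 912 CPM in syngeneic libraries. The 3 skeletal muscle markers ran from 12.3 to 22489 CPM within the combination alone. The keratinocyte markers Krt5, Krt14 and Krt10 summed to 22432 to 34334 CPM in the combination and 21885 to 33017 CPM with Wnt-C59, against 17989 to 21253 CPM in allogeneic and 6814 to 11970 CPM in syngeneic libraries and were thus abundant in all libraries, as the label of skin implies. With the adipocyte score as a covariate none of the members was called in the combination or with Wnt-C59 against allogeneic vehicle, while 8 were called in allogeneic against syngeneic skin. With a skeletal muscle score the counts were 3, 1 and 8, as without it. No such fit was made for the other cell types, and their part in the class II values was not tested.

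Genes of interferon-gamma signalling were higher in allogeneic skin. Of 7 genes in the list of interferon-gamma induction 7 rose in allogeneic against syngeneic vehicle skin, with a median log2 fold change of 1.25 against -0.07 over all tested genes, of which 14.6% were higher. The 7 include Socs1, a feedback inhibitor of that signalling and not an inducer, which rose by 2.42 (SE 0.43, edgeR adjusted p = 0.00084). Ifng itself had 3.58, 2.87 and 3.44 CPM in allogeneic libraries and 0.0459, 0, 0.0915 and 0.0441 CPM in syngeneic ones, too few counts for a firm fold (edgeR adjusted p = 0.00018). Irf1, a transcription factor that acts on the Ciita promoter, rose by 2.95 (SE 0.35) and Ifngr1, a receptor chain, by 1.09 (SE 0.14), with edgeR adjusted p of 5.5e-05 and 7.1e-05. Jak1, a kinase of the interferon-gamma receptor, had 220, 191 and 262 CPM in allogeneic libraries and 129, 100.2, 110 and 99.1 CPM in syngeneic ones, and it rose by 1.04 (SE 0.16, edgeR adjusted p = 0.00037).

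In each treated group 4 of these 7 genes fell and none rose against allogeneic vehicle, where 27.4% of all tested genes were lower in the combination and 26.2% with Wnt-C59. Ifng had 0.970, 0.289, 0.339 and 0.452 CPM in the combination and 1.23, 0.298, 0.0521 and 0.855 CPM with Wnt-C59, all below the allogeneic libraries. Its log2 fold change was -2.65 in the combination (SE 0.68, edgeR adjusted p = 0.0044) and -2.42 with Wnt-C59 (SE 0.68, edgeR adjusted p = 0.0082), and with the GC offset -1.93 and -1.86, both still called. With the adipocyte covariate the combination value was -4.63 and not called (edgeR adjusted p = 0.051). Jak2, the other kinase of the receptor, came to -1.70 in the combination and -1.72 with Wnt-C59 (SE 0.21 each, edgeR adjusted p = 2.1e-05 and 2.6e-05), and with the GC offset to -1.08 and -1.20. Its combination call ended with the adipocyte covariate, at -1.0.

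Jak1 came to -0.96 in the combination and -0.84 with Wnt-C59 (SE 0.16 each), and with the GC offset to -0.73 and -0.64. The Jak1 calls of all 3 comparisons ended with the adipocyte covariate as well, at 0.88 in allogeneic against syngeneic skin, -0.77 in the combination and -0.68 with Wnt-C59. Ifngr2, a receptor chain, had 55.2, 47.6, 46.5 and 51.8 CPM in the combination and 41.6, 37.9, 54.2 and 50.1 CPM with Wnt-C59, against 59.2, 67.1 and 65.1 CPM in allogeneic libraries, so that both treated groups lay below the allogeneic one. Its log2 fold change was -0.34 in the combination (SE 0.13, edgeR adjusted p = 0.043) and -0.47 with Wnt-C59 (SE 0.13, edgeR adjusted p = 0.0091). The combination call was lost without allogeneic library 2 (-0.29) or 3 (-0.32) and without combination library 3 (-0.32), 4 (-0.31) or 5 (-0.35), and also without the filter on low counts (-0.28), with the muscle score (-0.33) and in a fit of the 2 groups alone (-0.35). The adipocyte covariate ended the Ifngr2 calls of both groups, at -0.23 in the combination and -0.39 with Wnt-C59. Irf1 was not called in either, at -0.39 in the combination and -0.30 with Wnt-C59 (SE 0.34 each).

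Most genes of class II peptide processing and turnover were higher in allogeneic skin. Of 9 of them 7 rose in allogeneic against syngeneic skin, none fell, and the median log2 fold change was 1.34, where 14.6% of all tested genes were higher. Ctss, cathepsin S, which makes the last cut in the invariant chain, had 1000, 856 and 1202 CPM in allogeneic libraries and 54.0, 39.0, 73.3 and 61.8 CPM in syngeneic ones, a log2 fold change of 4.16 (SE 0.36, edgeR adjusted p = 5.3e-06). Marchf1, a ubiquitin ligase that sends class II molecules to degradation, had 22.5, 21.6 and 28.2 CPM in allogeneic libraries and 7.61, 4.64, 3.34 and 4.32 CPM in syngeneic ones. It rose by 2.27 (SE 0.31, edgeR adjusted p = 0.00013). Ctsh, a further cathepsin, rose by 1.34 (SE 0.16), and Ifi30, which reduces disulfide bonds in endosomal antigens, by 1.47 (SE 0.21), with edgeR adjusted p of 5.4e-05 and 0.00015.

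Against allogeneic vehicle, 2 of these 9 rose and 3 fell in the combination, and none rose and 4 fell with Wnt-C59. Of all tested genes 27.1% rose and 27.4% fell in the combination, so that the 5 of 9 called stand against 54.5% of all genes, and with Wnt-C59 24.6% rose and 26.2% fell. Ctss had 307, 189, 137 and 280 CPM in the combination and 209, 91.5, 94.4 and 197 CPM with Wnt-C59, below all allogeneic and above all syngeneic libraries. Its log2 fold change was -2.16 in the combination (SE 0.34, edgeR adjusted p = 0.00013) and -2.78 with Wnt-C59 (SE 0.35, edgeR adjusted p = 2.9e-05), and with the GC offset -1.75 and -2.44. Marchf1 had 5.86, 4.76, 3.05 and 5.65 CPM in the combination and 5.43, 4.61, 2.55 and 4.94 CPM with Wnt-C59, within or near the syngeneic range.

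Marchf1 thus fell by 2.31 in the combination and by 2.46 with Wnt-C59 on the log2 scale (SE 0.31 each, edgeR adjusted p = 3.8e-05 and 3.3e-05). Its GC content of 40.4% is low, and with the GC offset the values were -1.19 and -1.54, both still called. Ctsh fell by 0.81 in the combination and by 1.05 with Wnt-C59 (SE 0.16 each), and with the GC offset the values were -0.86 and -1.10. Lgmn, the asparaginyl endopeptidase legumain, had a log2 fold change of -1.21 with Wnt-C59 (SE 0.31, edgeR adjusted p = 0.0044) and of -0.19 in the combination (edgeR adjusted p = 0.62). Its Wnt-C59 call ended with the adipocyte covariate, at -0.92. Ifi30 rose in the combination by 0.61 (SE 0.21, edgeR adjusted p = 0.024), a call that ended with the GC offset at 0.21, without allogeneic library 1 (0.54) or 3 (0.61), without combination library 2 (0.48) and with the adipocyte covariate (0.45).

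Of the 7 DNA-binding factors of the X and Y boxes none rose and 2 fell in allogeneic against syngeneic skin, Rfxank by 0.40 (SE 0.14, edgeR adjusted p = 0.040) and Rfxap by 0.45 (SE 0.16, edgeR adjusted p = 0.042), both subunits of RFX, where 15.1% of all tested genes were lower. The Rfxank call was lost when any 1 of the 7 vehicle libraries was left out (-0.43 to -0.31), and the Rfxap call when any but syngeneic library 1 was left out (-0.51 to -0.37). Both calls also ended without the filter on low counts, with the adipocyte covariate and in a fit of the 2 groups alone.

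In each treated group 3 of the 7 rose and 2 fell against allogeneic vehicle, 5 of 7 called where 54.5% of all tested genes were called in the combination and 50.8% with Wnt-C59. Rfxank rose by 0.94 in the combination and by 0.71 with Wnt-C59 (SE 0.14 each, edgeR adjusted p = 6.8e-05 and 0.00066), of which the GC offset left 0.40 and 0.21, the second not called. Rfxap rose by 0.87 and 0.78 (SE 0.16 each) and Nfyc, a subunit of NF-Y, by 0.68 and 0.65 (SE 0.13 each) in the combination and with Wnt-C59. The GC offset left Rfxap at 0.70 and 0.60 and Nfyc at 0.67 and 0.62, and the adipocyte covariate ended the Rfxap call of the combination, at 0.81. Creb1, which binds the X2 box, fell by 1.94 and 1.77 (SE 0.19 each, edgeR adjusted p = 4.3e-06 and 9.6e-06) in these groups. Its GC content is 39.6%, and with the GC offset the values were -0.72 and -0.74. Not all subunits of RFX and NF-Y rose. Rfx5, also of RFX, had 8.85 to 14.9 CPM in the combination, below the 21.4 to 24.4 CPM of allogeneic vehicle libraries. With the GC offset its log2 fold change there was -0.81 (edgeR adjusted p = 0.02). Nfya, also of NF-Y, fell with Wnt-C59 by 0.53 (SE 0.17, edgeR adjusted p = 0.019), with overlapping libraries, and the GC offset gave -0.67.

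Of other class II genes, H2-Ea-ps, annotated as the I-E alpha chain pseudogene, had 690, 420, 301 and 517 CPM in the combination and 401, 240, 390 and 427 CPM with Wnt-C59, against 330, 698 and 430 CPM in allogeneic libraries. Syngeneic ones had 134, 102, 135 and 112 CPM. It rose in allogeneic against syngeneic skin by 2.01 (SE 0.29, edgeR adjusted p = 0.0002) and was not called in the combination (-0.01, and 0.29 with the GC offset) or with Wnt-C59 (-0.41, and -0.16 with the GC offset). H2-Eb2 had at most 8 counts in a library and was not tested.

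**Figure D4:**
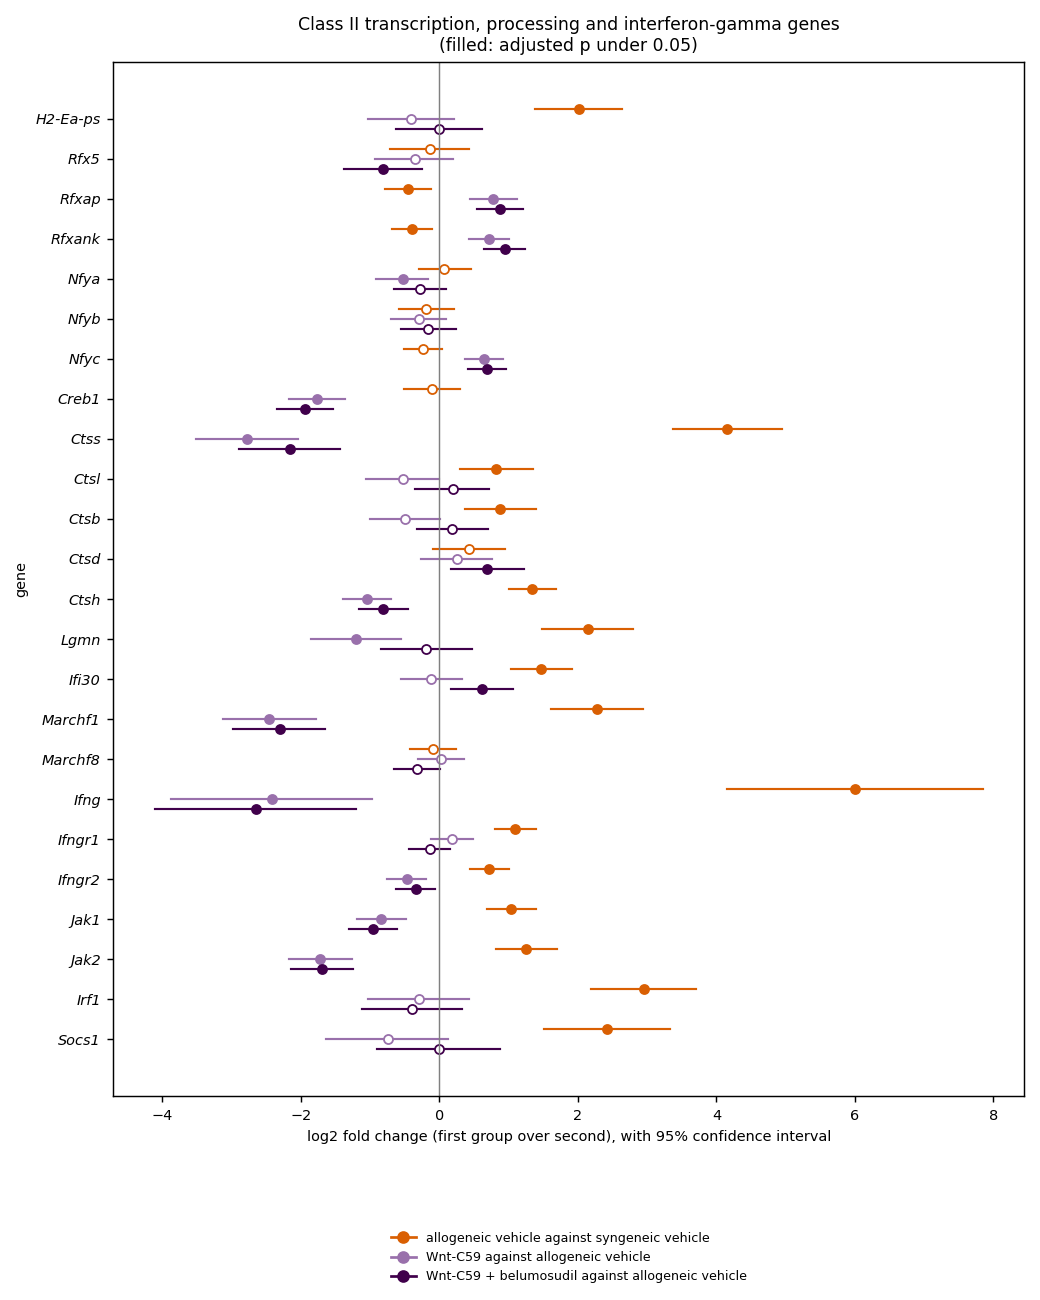
Log2 fold change (horizontal axis) with 95% confidence interval of H2-Ea-ps and of 23 genes of class II transcription, peptide processing and interferon-gamma induction in the same 3 comparisons; filled points have an adjusted p under 0.05. Ctss, Marchf1, Jak2 and Ifng lie above 0 in allogeneic against syngeneic skin and below 0 in both treated groups against allogeneic vehicle, while Creb1 departs from 0 in the treated groups alone.

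The genes whose level was most like that of the 10 members were ranked by Pearson r across the 15 libraries with the members' mean standardised log2 CPM, as a description without a test. Itgb7, an integrin beta chain, came first with r = 0.966, 0.961 within the 7 vehicle and 0.884 within the 8 treated libraries. Naaa, an amidase of lysosomes, had 0.965 (0.969 and 0.875), Ackr3, a chemokine scavenging receptor, 0.959 (0.966 and 0.910), and H2-Ea-ps 0.955 (0.963 and 0.972). Irf5, H2-M3, H2-Q6 and H2-T-ps followed at 0.951 to 0.947. The libraries share their group, scaling and GC trend in these values, and the last 3 genes have near copies in the MHC.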

How the data were processed

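Skin RNA gave 15 libraries in 4 groups. The authors deposited estimated counts per gene for all libraries in a table under Ensembl mouse identifiers, per the file headers; the values carry fractions and no scaling. FastQC, Trim Galore, HISAT2 and featureCounts with build GRCm39 are named in the submitters' processing notes, without versions, and strand setting is not given in the sources used here. Symbols, exon lengths and GC content came from GENCODE M21 (build GRCm38), which matched 91.5% of 56059 genes.

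The design assumed whole counts. Estimated counts were rounded and fitted with edgeR 4.0.16 in R 4.3.3 (TMM, filterByExpr, robust quasi-likelihood, group as the only term, all 15 libraries), with Benjamini-Hochberg adjustment over 18651 genes and calls under 0.05. CPM uses TMM-scaled library sizes. Ratios used counts plus 0.5 and exact two-sided permutation tests in SciPy 1.17.1, adjusted over 30 tests. Total estimated counts ran from 16.26 to 28.78 M per library, which limits H2-Oa and H2-Ob most. Steps were tested on simulated data.

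Alternatives were DESeq2 size factors, no filter on low counts, a GC offset, adipocyte or skeletal muscle scores as covariates, the compared groups alone, a replicate block, limma-voom 3.58.1, DESeq2 1.42.0 and each library left out. Named genes were the members, up to 4 called genes by smallest adjusted p from each pathway list (the 1 with the smallest p where none was called), the fixed cell type markers and the 8 most alike genes; Ptprc, Cd207 and Flt3 stand for markers. Irf1 in both treated groups, Lgmn and Rfx5 in the combination, Nfya with Wnt-C59 and Socs1 in allogeneic against syngeneic skin were named after their values were seen. The same holds for Itgax and Cd209a among the markers, and for the macrophage and T cell markers named singly. An item of the interferon-gamma list is not reported here. The members and lists were chosen with earlier results of these data known.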

Additional observations from a re-analysis of the deposited data

Results flagged for a closer look

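A library was flagged where it lay far from the other 3 of its group by Dixon's test. Among 45 gene or ratio groups of 4 libraries looked at, 6 were flagged. Chance flags about 1 in 20, but most members are correlated and share the same libraries, so the 6 flags cannot be set against that rate. With Wnt-C59, Cd74 had its lowest library at 1364 CPM (library 2), and the log2 ratio of H2-DMb2 to H2-DMb1 its highest at -0.32 (library 4). In syngeneic vehicle skin library 3 was the highest for H2-Eb1 at 360.4 CPM, for Cd74 at 1013 CPM and for H2-Oa at 0.732 CPM. The log2 ratio of H2-DMb2 to H2-DMb1 was highest in syngeneic library 4, at -0.78.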

How the results depend on the processing

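The count of called members in allogeneic against syngeneic vehicle was 8 under all alternatives but the replicate block. The block gave 6, since H2-Eb1 at 1.56 and Cd74 at 1.80 no longer passed. Allogeneic and syngeneic deviations with the same number correlated at -0.048, -0.143 and 0.008. These values gave no sign of pairing, but so few libraries cannot decide whether the numbers pair them. No paired analysis was possible for the other comparisons because treated columns carry no label numbers. For Wnt-C59 against allogeneic vehicle the count of 1 became 0 without a filter, with the adipocyte covariate and with 2 groups only, and 0 to 1 with a library left out. For the combination against allogeneic vehicle the 3 became 1 without a filter, 1 with the GC offset (Ciita, lower), 0 with the adipocyte covariate or 2 groups only, 5 with DESeq2 (4 higher, 1 lower), and 0 to 5 with a library left out. The cause of these changes was not tested.

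Signs turned for values that were not called, with Nfyb as the exception. With the GC offset, Wnt-C59 against allogeneic vehicle gave 0.29 for H2-Aa, -0.32 for H2-Ab1, -0.16 for H2-DMa and -0.11 for H2-DMb2; the combination gave -0.13 for Cd74, -0.28 for H2-DMb1 and 0.29 for H2-Ea-ps; Wnt-C59 against syngeneic gave 0.17 for Nfyb, which had been called lower. With the adipocyte covariate, Wnt-C59 against allogeneic gave -0.00 for H2-Ab1, -0.29 for H2-Eb1, -0.09 for H2-DMb2 and -0.03 for H2-Ob, and the combination -0.29 for H2-Aa, -0.25 for Cd74 and -0.58 for H2-DMb1. Without a filter, Wnt-C59 gave 0.02 for H2-Aa and 0.02 for Cd74 and the combination 0.05 for H2-Ea-ps, which was 0.05 with the muscle covariate as well. By limma-voom, H2-Aa had 0.05 and Cd74 0.06 with Wnt-C59, and H2-Ob -0.34 in allogeneic against syngeneic skin, where the replicate block gave -0.42.

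Leaving out a library gave, for results whose sign it turned, -0.93 to 0.70 for H2-Ob in allogeneic against syngeneic skin (0.21 with all libraries). In Wnt-C59 against allogeneic vehicle it gave -0.27 to 0.40 for H2-Aa, -0.09 to 0.71 for H2-Eb1, -0.28 to 0.38 for Cd74, -0.63 to 0.09 for H2-DMb1, -0.08 to 0.68 for H2-DMb2 and -0.08 to 1.58 for H2-Ob, each lowest without allogeneic library 1 and highest without allogeneic library 2. In the combination against allogeneic vehicle H2-DMb1 ran from -0.13 to 0.61 without the same libraries, and H2-Ea-ps from -0.24 to 0.36. In the combination against Wnt-C59 H2-Oa ran from -0.23 to 0.54 and the log2 ratio of H2-Ob to H2-DMb1 from -0.47 to 0.09. Ptprc in Wnt-C59 against syngeneic skin ran from -0.00 to 0.30.

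Over all genes, calls in allogeneic against syngeneic skin were 5556, with 1588 under the adipocyte covariate and 2968 under the block. The adipocyte covariate left 4340 of 9481 for Wnt-C59 and 3456 of 10168 for the combination against allogeneic vehicle. For the combination against Wnt-C59 the 43 calls became 9 (muscle covariate), 18 (2 groups only), 65 (limma-voom), 1507 (DESeq2) and 1 to 45 with a library left out. Depth limits H2-Oa and H2-Ob, with 5 to 119 counts per library.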
